A study of Mus musculus with 12 samples.

Results

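The livers of 12 male wild-type C57BL/6J mice, a common inbred laboratory strain, were sequenced, and the 10 genes described here encode acute phase proteins: Hp, Crp, Apcs, Saa1, Saa2, Saa3, Saa4, Orm1, Orm2 and Lcn2. Their gene identifiers in the table are 15439, 12944, 20219, 20208, 20209, 20210, 20211, 18405, 18406 and 16819, in the same order. They were taken by gene symbol from the 17432 genes of the deposited table, and all 10 passed the filter on low counts that left 12344 genes to test. The mice were 8 to 10 weeks old, had their food intake synchronised for 3 days and were refed for 3 h. A group of 6 then ran on a treadmill at 14 m/min for 3 h (exercise) and the other group of 6 stayed sedentary. Livers of both groups were collected at the same time. Libraries held 18745379 to 19324461 estimated counts each, and no pair of libraries was identical. Levels are CPM, a count relative to the library total, with TMM factors (a trimmed mean of gene ratios) applied between libraries, and changes are log2 fold changes of exercise against sedentary mice. In whole liver, fewer cells of a type and less RNA per cell cannot be told apart.

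Acute phase proteins are plasma proteins made mainly by hepatocytes, and their blood levels shift within hours to days of injury or infection. Interleukin-6 acts through STAT3, interleukin-1 acts through NF-kB, and glucocorticoids and C/EBP factors act on many of the same promoters. In mice, Saa1 and Saa2 are the strongly inducible serum amyloid A genes of liver, Saa4 is expressed constitutively and Saa3 is made largely outside hepatocytes. Serum amyloid P, encoded by Apcs, is the pentraxin that responds most in this species, while mouse C-reactive protein responds weakly.

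Several of these genes are neighbouring copies, and the sequence before their start sites is shown as description. A link between these sequences and the changes of the genes was not tested. In GRCm38, the assembly also called mm10, the 4 serum amyloid A genes lie within 42.3 kb of chromosome 7, with Saa3 at chr7:46711998-46719615, Saa4 at chr7:46727992-46732603, Saa1 at chr7:46740497-46743181 and Saa2 at chr7:46751833-46754313. Saa2 is on the plus strand and the other members of this cluster are on the minus strand. Orm1 (chr4:63344556-63348163) and Orm2 (chr4:63362449-63365877) lie on the plus strand with Orm3 between them. Crp (chr1:172698056-172699966, plus strand) and Apcs (chr1:172893961-172895054, minus strand) are 194.0 kb apart. Hp (chr8:109575128-109579172) and Lcn2 (chr2:32384637-32387739) are both on the minus strand. Promoter sequences of 8 of the 10 genes were matched in a RefSeq table of GRCm38.p6, and Hp and Orm1 had no entry. The 250 bases before the start used in that table are given 5′ to 3′ on the strand of the gene for 6 genes. The window of Saa1 lies partly inside the longest span that RefSeq gives the gene. The window of Saa3 (chr7:46715677-46715926, not shown) lies wholly inside the RefSeq span of Saa3. Capitals mark matches, on either strand, to the C/EBP pattern TTGCNNAA (read as TTNNGCAA on the other strand), to the STAT pattern TTCNNNGAA in Apcs and to the glucocorticoid receptor pattern ACANNNTGT in Lcn2.
Saa1, chr7:46742981-46743230, minus strand: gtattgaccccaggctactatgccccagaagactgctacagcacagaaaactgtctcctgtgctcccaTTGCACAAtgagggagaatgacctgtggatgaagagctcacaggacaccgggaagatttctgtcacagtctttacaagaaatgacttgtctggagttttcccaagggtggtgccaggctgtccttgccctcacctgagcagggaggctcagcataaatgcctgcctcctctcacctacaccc
Saa2, chr7:46751583-46751832, plus strand: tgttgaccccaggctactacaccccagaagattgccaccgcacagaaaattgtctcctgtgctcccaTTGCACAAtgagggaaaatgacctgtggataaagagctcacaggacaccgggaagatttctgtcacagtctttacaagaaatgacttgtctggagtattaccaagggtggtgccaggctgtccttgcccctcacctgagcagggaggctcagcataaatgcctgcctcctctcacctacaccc
Saa4, chr7:46732604-46732853, minus strand: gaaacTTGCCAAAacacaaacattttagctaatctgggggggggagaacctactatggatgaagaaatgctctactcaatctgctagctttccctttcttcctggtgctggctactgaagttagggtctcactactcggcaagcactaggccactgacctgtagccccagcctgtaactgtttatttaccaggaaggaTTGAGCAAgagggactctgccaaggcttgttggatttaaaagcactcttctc
Lcn2, chr2:32387740-32387989, minus strand: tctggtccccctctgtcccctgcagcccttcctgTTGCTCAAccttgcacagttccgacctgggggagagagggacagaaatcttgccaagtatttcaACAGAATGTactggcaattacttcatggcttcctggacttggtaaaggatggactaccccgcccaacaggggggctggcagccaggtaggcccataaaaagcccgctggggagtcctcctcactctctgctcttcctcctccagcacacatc
Crp, chr1:172697806-172698055, plus strand: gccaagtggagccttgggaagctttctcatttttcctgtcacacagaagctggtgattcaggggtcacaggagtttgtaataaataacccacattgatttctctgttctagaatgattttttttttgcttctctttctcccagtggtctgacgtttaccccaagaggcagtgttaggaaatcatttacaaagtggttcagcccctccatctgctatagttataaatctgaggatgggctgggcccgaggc
Apcs, chr1:172895055-172895304, minus strand: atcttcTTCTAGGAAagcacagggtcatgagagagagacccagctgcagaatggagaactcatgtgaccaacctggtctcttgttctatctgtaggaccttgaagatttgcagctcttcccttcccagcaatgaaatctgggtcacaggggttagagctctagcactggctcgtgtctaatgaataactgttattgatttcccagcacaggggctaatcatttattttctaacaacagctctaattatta

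The windows of Saa1 and Saa2 were 94.8% identical over their alignment and both held TTGCACAA, at positions -182 to -175 from the start in Saa1 and -183 to -176 in Saa2. Saa4 was less like Saa1 (46.3% identical) and held the C/EBP pattern at 2 places, while Lcn2 held it at 1 place, from -216 to -209. No match overlapped a match to another pattern. The C/EBP pattern was present in 6 of the 8 matched windows (Saa1, Saa2, Saa3, Saa4, Orm2 and Lcn2), against 9.56% of 32851 windows of the same length before all starts in the table. The STAT pattern was found in 1 of 8 (Apcs, against 7.02% of all windows), the glucocorticoid receptor pattern in 1 of 8 (Lcn2, against 5.84%) and the NF-kB pattern GGGANNNNCC in 0 of 8 (against 17.6%). These letters describe the windows alone, and the windows of Saa1 and Saa2 share an origin, so they do not count as separate sequences.

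Of the 10 genes, 4 rose following postprandial exercise: Hp, Crp, Saa4 and Lcn2. None of the 10 fell at an adjusted p of 0.05 in edgeR, and 0 fell at an unadjusted p of 0.05, in DESeq2 or in limma-voom. Across all genes tested, 42.4% changed in either direction, 21.1% were higher and 21.3% were lower. The share of acute phase genes that changed, 40.0%, is thus near the share of all genes, and their number says nothing particular about the group. The median log2 fold change of the 10 genes was 0.23, beside -0.0028 for all genes tested. In the same 4 genes every exercised mouse was above every sedentary mouse, and such groups without overlap were seen in 22.3% of all genes tested, or 11.7% when only genes higher after exercise are counted. The plot of fold changes with confidence intervals sets the 4 genes apart from the 6 whose intervals held 0.

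**Figure D1:**
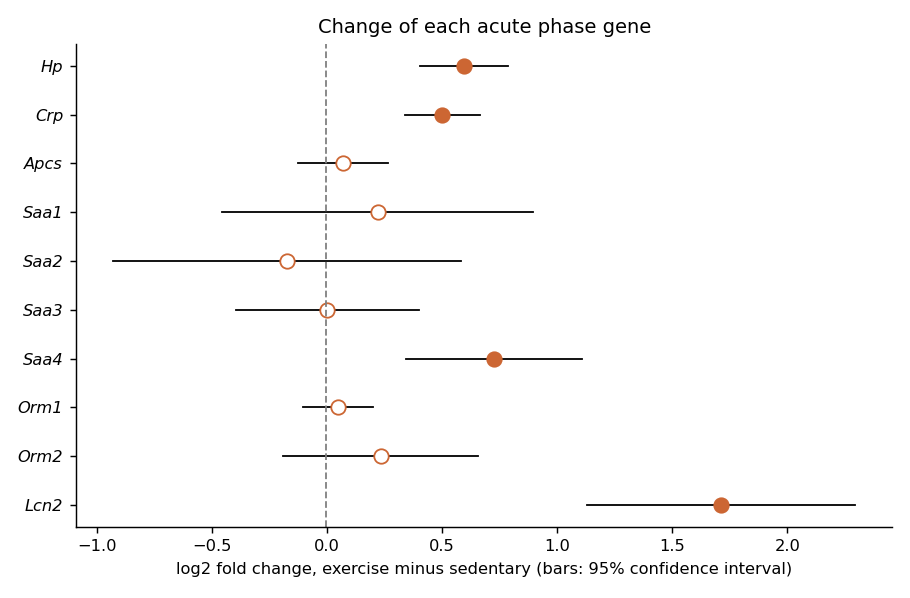
The log2 fold change (exercise minus sedentary, horizontal axis) of each of the 10 genes is plotted with its 95% confidence interval as a bar, with filled circles for an adjusted p under 0.05 and a dashed line at the median of all genes tested. The 4 filled genes run from 0.50 (Crp) to 1.71 (Lcn2), and the widest intervals belong to Saa1 and Saa2.

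Levels per transcript length (FPKM) put the genes in order of abundance. Hp, which encodes haptoglobin, the plasma scavenger of free hemoglobin, was the most abundant with 1752 ± 172 FPKM (SD, n = 6) in sedentary mice, followed by Orm1, encoding the carrier protein orosomucoid (1083 ± 77.6 FPKM), and Crp (226 ± 21.9 FPKM). The ranges of these neighbours in the order did not overlap. Below them came Saa4 (116 ± 19.4 FPKM), Orm2 (72.8 ± 22.5), Apcs (63.9 ± 6.71), Saa1 (45.9 ± 16.8), Saa2 (27.1 ± 10.2), Saa3 (9.40 ± 2.61) and Lcn2 (8.28 ± 1.77), each overlapping the next in range. In exercised mice Lcn2 (25.3 ± 9.94 FPKM, SD, n = 6) stood above Saa2 (22.4 ± 8.64, overlapping in range) and Saa3 (9.25 ± 2.68, not overlapping), and the other 9 genes kept their order. Among all genes in the table, Hp moved from place 55 to place 36 by mean FPKM and Lcn2 from place 4456 to place 1960. The 10 genes together took 0.343% to 0.413% of the estimated counts of a sedentary library (median 0.391%) and 0.458% to 0.576% of an exercised one (median 0.486%). Hp alone made up 56.2% to 62.3% of that sum in sedentary mice and 61.8% to 67.0% in exercised mice.

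Hp was measured at 1777 CPM in the lowest, 2309 CPM in the median and 2501 CPM in the highest sedentary mouse. The exercised mice had 2955, 3155 and 3899.6 CPM. The lowest exercised mouse (Exercise 1) was above the highest sedentary mouse (Sedentary 5), and Exercise 3 and Exercise 5 lay above the other exercised mice. Hp rose from 2203 ± 275 to 3331 ± 396 CPM (SD, n = 6), which is 1.51-fold, with a log2 fold change of 0.60 (95% confidence interval 0.40 to 0.79, standard error 0.091). The quasi-likelihood test of edgeR gave an adjusted p = 5.33e-05. The two-sided exact permutation test over the 924 ways to divide 12 mice gave p = 0.00216, the smallest p this design allows.

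The pentraxins are ring-shaped pattern recognition proteins that bind phosphocholine, microbes and damaged cells, and the pair of them in liver differed. Crp, which encodes C-reactive protein, had 293, 359 and 413 CPM in the lowest, median and highest sedentary mouse and 462, 515 and 552 CPM in the exercised mice. The groups did not overlap, and Crp had the smallest spread within the exercised group of all 10 genes (coefficient of variation 7.86%). Crp rose 1.42-fold, from 361 ± 42.5 to 512 ± 40.2 CPM (SD, n = 6, log2 fold change 0.50 with a standard error of 0.078, edgeR adjusted p = 6.09e-05, exact permutation p = 0.00216).

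Apcs, which encodes serum amyloid P, had 52.7, 55.3 and 73.1 CPM in the lowest, median and highest sedentary mouse and 51.6, 60.6 and 70.1 CPM in the exercised mice. The highest value of all 12 mice was in Sedentary 5, and the groups overlapped over nearly their whole range. The log2 fold change was 0.069 with a 95% confidence interval of -0.13 to 0.26 (adjusted p = 0.584 from edgeR, exact permutation p = 0.528). That interval reaches 1.20-fold at its upper end, below the 1.26-fold at the lower end of the interval of Crp. Within each library the log2 ratio of Crp to Apcs counts was 2.40 to 2.77 in sedentary mice and 2.96 to 3.21 in exercised mice, without overlap. This ratio, in which any scaling between libraries cancels, rose by 0.44 (standard error 0.072, exact permutation p = 0.00216, 0.00866 after adjustment over the 4 pairs compared).

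**Figure D2:**
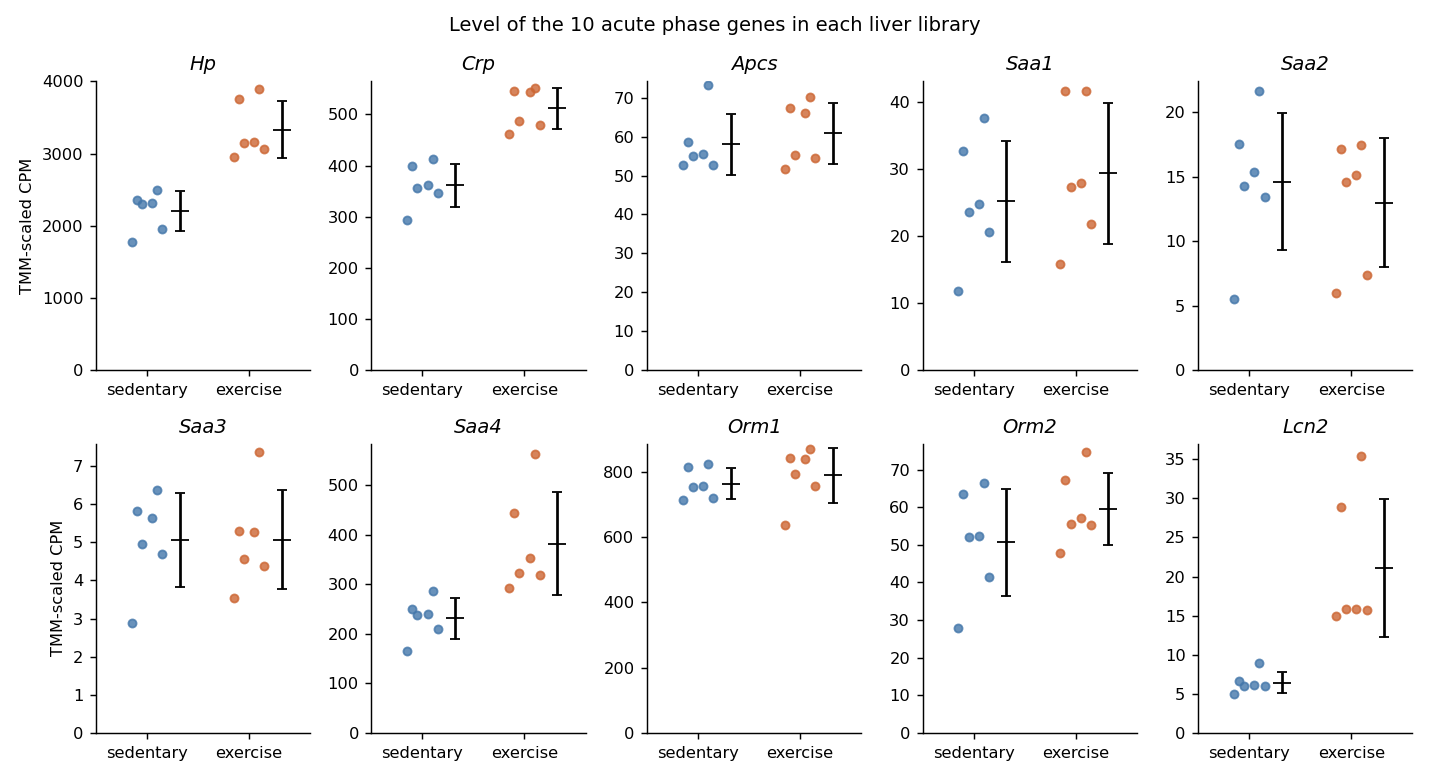
TMM-scaled CPM (vertical axes, from 0) is plotted for every library, with sedentary mice in blue, exercised mice in orange and the mean ± SD beside each group. The groups separate in Hp, Crp, Saa4 and Lcn2 and overlap in the other 6 genes, and the exercised mice Exercise 3 and Exercise 5 stand above the other 4 in Lcn2.

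Serum amyloid A proteins are small apolipoproteins that travel on high-density lipoprotein. Saa4, the constitutive member, had 165, 239 and 285 CPM in the lowest, median and highest sedentary mouse. The exercised mice had 292, 338 and 564 CPM, the highest in Exercise 3. The groups did not overlap, though the gap between the highest sedentary mouse (Sedentary 1) and the lowest exercised mouse (Exercise 2) was narrow. Saa4 rose 1.65-fold, from 231 ± 40.9 to 382 ± 103 CPM (SD, n = 6, log2 fold change 0.72 with a standard error of 0.17, edgeR adjusted p = 0.00553, exact permutation p = 0.00216). Without Exercise 3 the log2 fold change was 0.59.

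The inducible members did not pass the test. Saa1 had 11.8, 24.2 and 37.5 CPM in the lowest, median and highest sedentary mouse and 15.8, 27.6 and 41.6 CPM in the exercised mice. Saa2 had 5.55, 14.8 and 21.6 CPM in sedentary mice and 6.01, 14.9 and 17.5 CPM in exercised mice. Both genes varied widely inside each group: the highest sedentary mouse had 3.18 times the lowest for Saa1 and 3.89 times for Saa2, and among exercised mice the ratios were 2.64 and 2.91. The spread of their log2 levels within groups was above that of 98.8% (Saa1) and 99.4% (Saa2) of all genes tested. The log2 fold change was 0.22 for Saa1 (95% confidence interval -0.46 to 0.90, adjusted p = 0.608) and -0.18 for Saa2 (-0.93 to 0.58, adjusted p = 0.719, edgeR). These intervals run from 0.728-fold to 1.86-fold for Saa1 and from 0.525-fold to 1.49-fold for Saa2. A change as large as that of Saa4 is thus not excluded in Saa1. With Saa1 and Saa2 counts summed before the fit, the log2 fold change was 0.087 (-0.61 to 0.79, adjusted p = 0.855).

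Saa3, the member made largely by macrophages and adipocytes, was low in every liver, with 2.88, 5.31 and 6.37 CPM in the lowest, median and highest sedentary mouse and 3.54, 4.92 and 7.36 CPM in the exercised mice, from 53.0 to 141 estimated counts per library. The groups overlapped, with only Exercise 2 above the sedentary range and only Sedentary 5 below the exercised range. Its log2 fold change was 0.00 (95% confidence interval -0.40 to 0.40, adjusted p = 1.00 from edgeR, exact permutation p = 0.981).

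Since Saa1 and Saa2 were 95.1% identical over 366 coding bases, the split of their reads depends on the estimate made in counting. Of all windows of 50 bases in the longest spliced transcript, 14.8% of those of Saa1 and 9.12% of those of Saa2 also occur in another gene, and none of those of 100 bases do. The log2 ratio of Saa1 to Saa2 counts was 0.80 ± 0.18 in sedentary and 1.21 ± 0.27 in exercised mice (SD, n = 6). In 4 of the 6 exercised mice the ratio was above the highest sedentary mouse (Sedentary 5), while Exercise 1 and Exercise 2 lay within the sedentary range. The ratio was higher by 0.40 (standard error 0.13, exact permutation p = 0.0152, 0.0303 after adjustment over the 4 pairs). The call was lost, with adjusted p from 0.0519 to 0.0649, when any one of Sedentary 1, 2, 4 and 6 or Exercise 3, 4, 5 and 6 was left out. The log2 ratio of Saa1 to Saa4 was -3.27 ± 0.58 in sedentary and -3.75 ± 0.55 in exercised mice (difference -0.48, exact permutation p = 0.165, adjusted p = 0.219). Without Sedentary 5 that difference was -0.70 and passed the threshold (exact permutation, adjusted p = 0.0346, within 0.0346 to 0.355 over the 12 mice left out in turn).

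**Figure D3:**
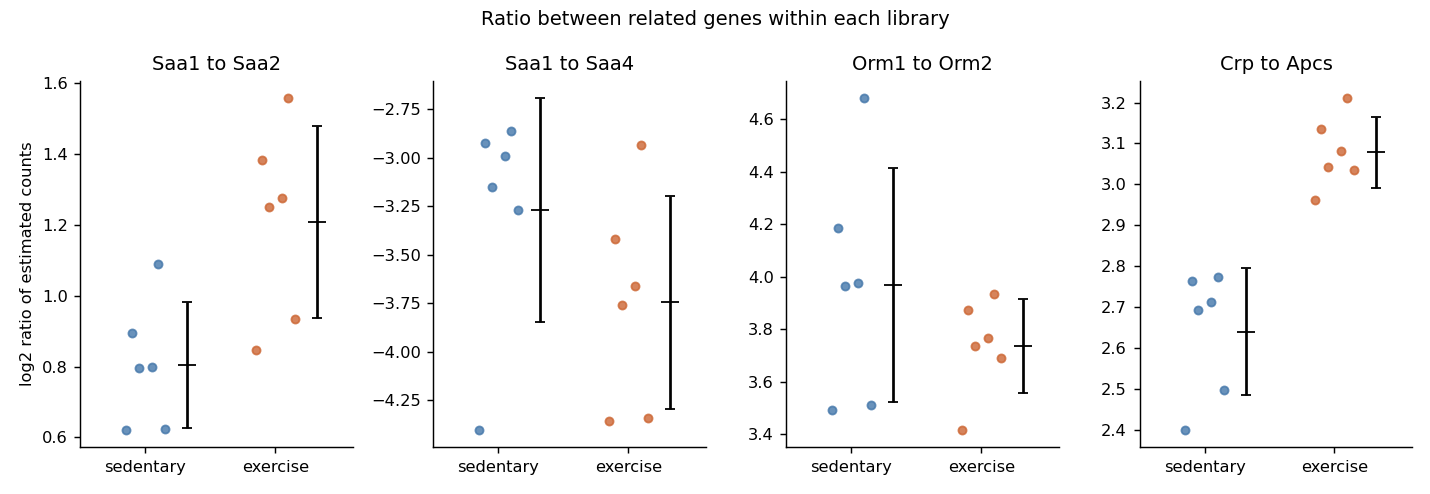
The log2 ratio of estimated counts within each library (vertical axes) is plotted for 4 pairs of related genes, with the mean ± SD beside each group. The groups separate for Crp to Apcs, 4 of 6 exercised mice lie above the sedentary range for Saa1 to Saa2, and Sedentary 5 is the low point for Saa1 to Saa4.

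The orosomucoid genes encode alpha-1-acid glycoproteins, plasma carriers of lipids and basic drugs. Orm1 had 715, 756 and 826 CPM in the lowest, median and highest sedentary mouse and 638, 817 and 869 CPM in the exercised mice. Exercise 2 was the lowest of all 12 mice and 3 exercised mice were above the sedentary range. Orm1 had the smallest spread within groups of the 10 genes, and its log2 fold change of 0.049 had a 95% confidence interval of -0.10 to 0.20, which reaches 1.15-fold (adjusted p = 0.629 from edgeR, exact permutation p = 0.593). Orm2 had 28.0, 52.3 and 66.5 CPM in sedentary mice and 47.8, 56.5 and 74.6 CPM in exercised mice (log2 fold change 0.23, -0.19 to 0.66, adjusted p = 0.367 from edgeR). The log2 ratio of Orm1 to Orm2 went from 3.97 ± 0.45 to 3.74 ± 0.18 (SD, n = 6), a difference that did not pass the test (-0.23, exact permutation p = 0.277, adjusted p = 0.277). Without Sedentary 5 that difference was -0.089, and over the 12 mice left out in turn it ran from -0.33 to -0.089.

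Orm3, the copy between them and not one of the 10 genes, was far lower, at 8.35 ± 1.90 CPM in sedentary and 14.3 ± 5.57 CPM in exercised mice (SD, n = 6). It was 1.71-fold higher with overlapping groups (log2 fold change 0.78 with a standard error of 0.26, edgeR adjusted p = 0.0331, exact permutation p = 0.0260). DESeq2 also called it (adjusted p = 0.0142), but the call was lost with limma-voom (0.0558), with no low-count filter (0.0539), with limma on log2(FPKM + 0.1) (0.0503) and with the replicate block (0.104). It was also lost when Sedentary 1, 2 or 3 or Exercise 1, 3, 4 or 6 was left out. Orm1 and Orm2 were 89.9% identical over 621 coding bases, and 20.4% of the windows of 50 bases in Orm1 and 22.7% in Orm2 occur in another gene, so their separate values are uncertain. The 3 genes summed had a log2 fold change of 0.070 (95% confidence interval -0.084 to 0.22, adjusted p = 0.475).

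Lcn2 encodes lipocalin 2, which binds bacterial siderophores and so withholds iron from microbes, and is made by hepatocytes in the acute phase and stored by neutrophils. It had 5.01, 6.06 and 9.00 CPM in the lowest, median and highest sedentary mouse and 14.9, 15.9 and 35.5 CPM in the exercised mice. In 4 exercised mice Lcn2 fell between 14.9 and 15.9 CPM, and Exercise 5 (28.9 CPM) and Exercise 3 (35.5 CPM) stood above them. Lcn2 had the largest change of the 10 genes, 3.28-fold, from 6.44 ± 1.35 to 21.1 ± 8.82 CPM (SD, n = 6, log2 fold change 1.71, standard error 0.26, 95% confidence interval 1.13 to 2.30, adjusted p = 0.000361 from edgeR, exact permutation p = 0.00216). With Exercise 3 and Exercise 5 left out together, a choice made after seeing the data, the log2 fold change was 1.28 (standard error 0.12, adjusted p = 2.05e-06). Counts of Lcn2 ran from 105 to 612 per library.

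Most defining genes of neutrophils were at or near 0 in the 12 livers. S100a8 had 0 to 5 counts per library, S100a9 1 to 8, Ngp 0 to 4, Ltf 0 to 2 and Camp 0 to 1, while the surface protein gene Ly6g had 5 to 28.6 and the receptors Cxcr2 and Csf3r had 26.9 to 56.5 and 24.6 to 39.9. Ly6g, named after its values were seen, was at 1.06 CPM on average in sedentary and 0.734 CPM in exercised mice (log2 fold change -0.54, edgeR adjusted p = 0.211). Of 13 neutrophil genes listed, 3 passed the filter and 0 changed, and the listed genes summed to 4.18 to 6.61 CPM in sedentary and 4.10 to 7.59 CPM in exercised mice. None of 13 Kupffer cell and macrophage genes changed (134 to 227 against 163 to 245 CPM summed), none of 5 cholangiocyte genes tested did (31.8 to 42.2 against 34.3 to 41.9 CPM) and none of 2 lymphocyte genes tested did (2.28 to 4.10 against 2.30 to 4.40 CPM). For these 4 lists the count was 0 by edgeR, at an unadjusted p of 0.05, by DESeq2 and by limma-voom. With mice left out it was not always 0. Without Exercise 1, 1 Kupffer cell and macrophage gene was higher, and without Exercise 2, 1 cholangiocyte gene was lower. Without Exercise 3, alone or together with Exercise 5, 1 neutrophil gene was lower. The macrophage receptor gene Cd163, on another list described below, was higher (log2 fold change 0.88). Of 7 endothelial genes tested, 3 were higher and 1 was lower (57.1% changed, 130.8 to 179 against 151 to 229.7 CPM). Of 8 stellate cell genes, 3 were lower (37.5% changed, 154 to 209.95 against 140.2 to 208 CPM). Over all genes tested, 42.4% changed. With 1 mouse left out at a time, 2 to 5 endothelial genes were higher and 1 to 3 stellate cell genes were lower. The adipocyte genes summed to 48.6 to 57.5 CPM in sedentary and 67.8 to 97.1 CPM in exercised mice, through Pnpla2, a lipase that liver also expresses, while Adipoq had 0 to 2 and Plin1 0 to 1 counts per library. Of 12 hepatocyte genes, 5 were higher and 0 lower (41.7% changed, against 42.4% of all genes). With library size alone or with limma on FPKM, 3 were higher and 1 was lower. The 5 include Tat (1.83) and Pck1 (1.93), which are also among the classic glucocorticoid targets described below. The part of these cell types in the changes of the 10 genes was not tested.

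The 10 genes did not follow one order across mice. Sedentary 5 was the lowest sedentary mouse for Saa1, Saa2, Saa3 and Orm2, by 0.98, 1.22, 0.68 and 0.79 on the log2 scale under the group mean, and at the same time the highest sedentary mouse for Hp, Crp and Apcs. Sedentary 1 was the highest of its group for Saa1, Saa2, Saa4 and Lcn2. Sedentary 2 was the lowest for Hp, Crp, Saa4 and Lcn2. Among exercised mice, Exercise 3 and Exercise 5 were the highest for Saa1, Saa2, Hp, Crp, Apcs and Lcn2, with Saa1 at 0.58 above the group mean in both. Exercise 4 was the lowest for Saa1 and Saa2, by 0.80 and 0.94 under the group mean, while its Hp was 0.11 under and its Crp 0.092 above the mean. Without Sedentary 5 the log2 fold changes of Saa1, Saa2 and Orm2 were 0.081, -0.34 and 0.11, and none passed the test. Without Sedentary 1 that of Saa1 was 0.37.

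**Figure D4:**
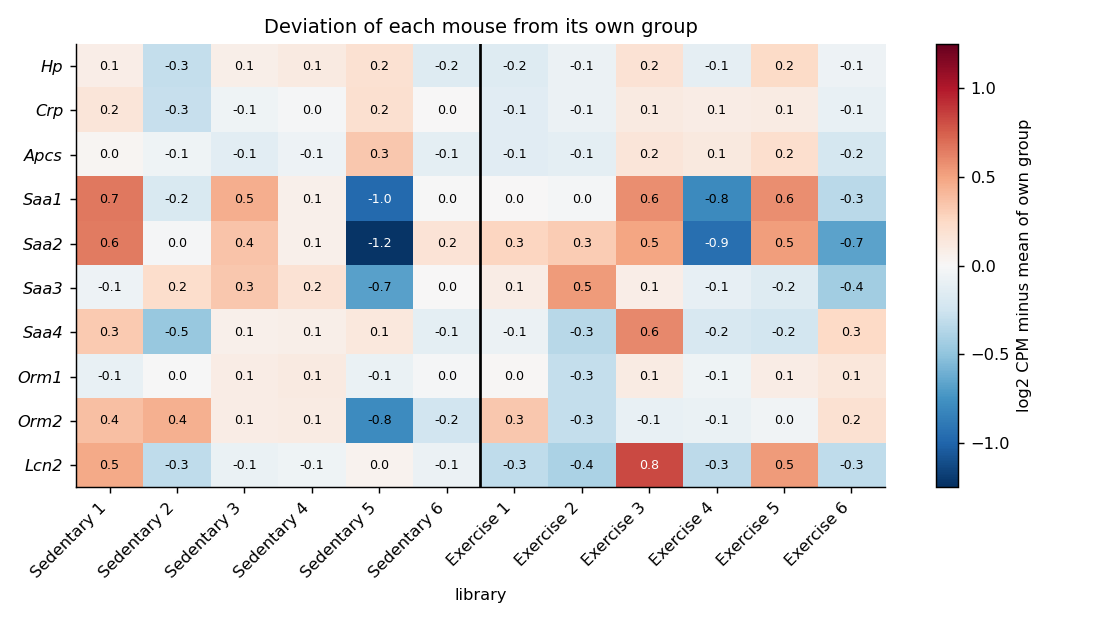
Each cell gives log2 CPM minus the mean of the mouse's own group, for the 10 genes (rows) in the 12 libraries (columns), in red above and in blue below the mean. Sedentary 5 is blue for Saa1, Saa2, Saa3 and Orm2 and red for Hp, Crp and Apcs. Exercise 3 and Exercise 5 are red for Saa1, Saa2, Hp, Crp, Apcs and Lcn2.

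Of 24 other genes that are known to rise in the acute phase, 8 were higher and 1 lower (37.5% changed, against 42.4% of all genes), with a median log2 fold change of 0.18. The lower one, Mbl1, named after its values were seen (-0.18, edgeR adjusted p = 0.0491), was not called by DESeq2, limma-voom, RLE scaling, the replicate block or without a low-count filter, with adjusted p from 0.0062 to 0.127 over all alternatives and mice left out. Its call was also lost in 9 of the 12 fits with 1 mouse left out. The 5 with the smallest p were all higher: Lbp, which encodes the lipopolysaccharide-binding protein (81.3 ± 14.4 to 137 ± 18.3 CPM, log2 fold change 0.75), its partner receptor Cd14 (1.18 ± 0.38 to 2.54 ± 0.99 CPM, 1.08), Lrg1 (0.56) and the protease inhibitors Serpina3n (0.41) and Serpina3m (0.33). Lbp, Cd14 and Lrg1, picked by p, did not overlap between groups, which also holds for 22.3% of all genes tested. Of 15 genes known to fall in the acute phase, 4 were higher and 1 was lower (33.3% changed, against 42.4% of all genes), with a median of 0.11. The 4 were F12 (0.16 on the log2 scale), Hrg (0.29), Gc (0.20) and Alb (0.24). Serpina6, which encodes the glucocorticoid carrier of plasma, was the lower one (-0.24). With library size alone as the scaling, 0 of the 15 were higher and 3 were lower, with a median of 0.016, so the direction of this list depends on the scaling. Of the 24 genes known to rise, 5 were higher and 1 was lower with library size alone or limma on FPKM. With Exercise 3 and Exercise 5 left out together, 4 of the 24 were higher and 0 lower, and Serpina3m lost its call (edgeR adjusted p = 0.0527). In the same fit 1 of the 15 genes known to fall was higher and 1 was lower. Hrg, Gc and Alb lost their calls there (edgeR adjusted p = 0.0883, 0.0737 and 0.0541). The call of Serpina6 was lost without Sedentary 2 or without Exercise 4, 5 or 6, and that of Alb without Sedentary 1, 2 or 4 or without Exercise 1.

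Of the cytokines that drive the response, Il6 had 1 count in all sedentary and 1 in all exercised libraries together, as did Osm, so a difference was not detectable at this depth, and Tnf had 9 and 1. Il1a (27 to 67 counts per library), Il1b (4 to 25) and Ctf1 (56 to 93) passed the filter, with log2 fold changes of -0.070, -0.26 and -0.083, and 0 of these 3 changed by edgeR, at an unadjusted p of 0.05, by DESeq2 or by limma-voom. Of 23 genes of the receptors and their signal chain, 9 were higher and 0 lower (39.1% changed, against 42.4% of all genes). Their median log2 fold change was 0.16, and with library size alone 7 were higher and 2 lower. The 5 with the smallest p were Nfkbia, the inhibitor of NF-kB (1.00), the receptors Osmr (1.17), Il1r1 (40.3 ± 16.5 to 164 ± 22.0 CPM, 2.03) and Il6ra (24.2 ± 9.25 to 59.7 ± 9.23 CPM, 1.30), and the adaptor Myd88 (0.36). Picked by p, these 5 genes did not overlap between groups, which also holds for 22.3% of all genes tested. Stat3 was higher by 0.54, while Socs3, its early feedback target, had 5.91 CPM in sedentary and 5.19 CPM in exercised mice (log2 fold change -0.18, adjusted p = 0.511 from edgeR). Stat3, Socs3 and the cytokines that passed the filter were named after their values were seen.

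**Figure D5:**
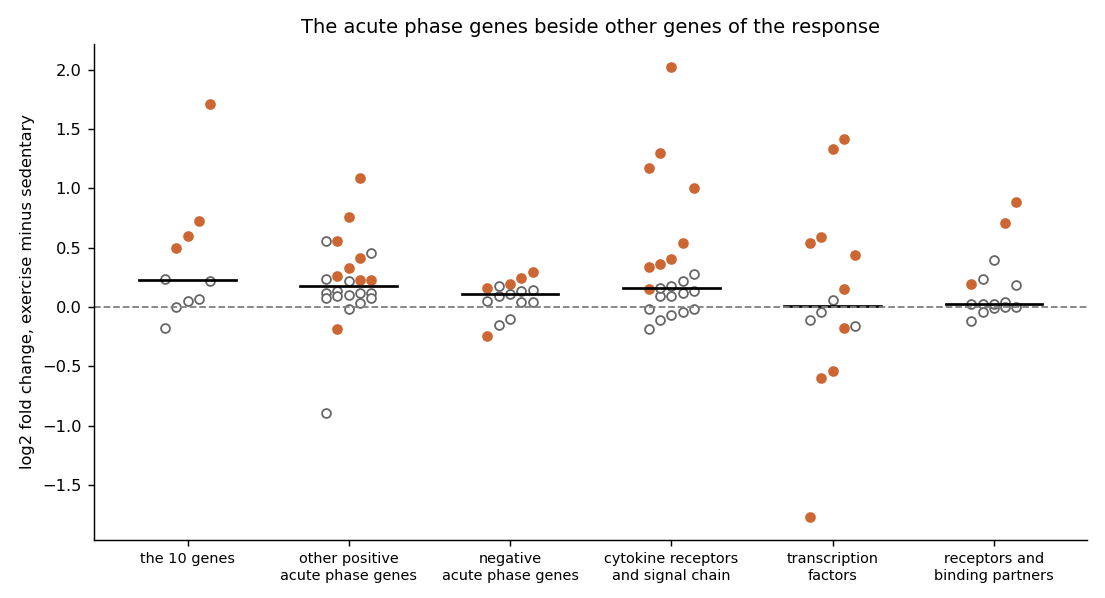
Each point is the log2 fold change (exercise minus sedentary) of 1 tested gene, filled for an adjusted p under 0.05, in the 10 acute phase genes and 5 lists of related genes, with black lines at the medians and a dashed line at the median of all genes tested. The medians run from 0.0096 (transcription factors) to 0.23 (the 10 genes), and Il1r1 is the highest point at 2.03.

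The transcription factors that bind acute phase promoters changed in both directions. Of 14 tested, 6 were higher and 4 lower (71.4% changed, against 42.4% of all genes), with a median log2 fold change of 0.0096. Among the 5 with the smallest p, Cebpb (1.34), Cebpd (7.22 ± 1.79 to 19.3 ± 3.02 CPM, 1.41) and Hnf4a (0.59) were higher, and Cebpa (-0.54) and Foxa2 (-0.60) were lower. Picked by p, these 5 genes did not overlap between groups, which also holds for 22.3% of all genes tested. The C/EBP pattern stood in the windows of Saa4 and Lcn2, which rose. It also stood in those of Saa1, Saa2, Saa3 and Orm2, which did not pass the test. The intervals of Saa1 and Saa2 were wide, so a response in them is not excluded. The window of Crp, which rose, held none of the 4 patterns, and Hp and Orm1 had no window. Whether C/EBP factors took part in the changes of the 10 genes was not tested. Of 16 classic glucocorticoid targets listed, which include Lcn2 and Orm1, 15 were higher and 0 lower (93.75% changed, against 42.4% of all genes). Orm1 was the one that did not pass the test. This list, like the others, was chosen with earlier results of these data known, so its count is description alone. The part of glucocorticoids in the changes of the 10 genes was not tested.

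Of 15 receptors and binding partners of the secreted proteins tested, 3 were higher and 0 lower by edgeR. This share was below the 42.4% of all genes tested that changed in either direction, and below the 21.1% that were higher. At an unadjusted p of 0.05, 1 of the 15 was lower, and 0 were lower by DESeq2 and limma-voom. The 3, named after their values were seen, were Cd163, the receptor by which macrophages take up haptoglobin with hemoglobin (5.29 to 9.78 CPM, log2 fold change 0.88, adjusted p = 0.000201 from edgeR), the Fc receptor Fcgr3, which binds pentraxins (0.70), and Lcat, the cholesterol-esterifying enzyme of high-density lipoprotein (0.20, lost with library size alone, with limma on FPKM, and without Sedentary 6 or Exercise 3). Slc22a17, the lipocalin 2 receptor, also named afterwards, was at 0.768 and 1.02 CPM (0.40, adjusted p = 0.285 from edgeR). These lists were described by their counts and medians, with no test of a list as a whole.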

How the data were processed

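The authors deposited 1 table that holds, per gene, estimated counts and FPKM values of the 12 libraries. Per the submitters' processing notes, Bowtie2 2.3.4.3, RSEM 1.3.1 and the build mm10 were used; the annotation, read length and strand setting are not given in the sources used here. The deposited estimated counts divide shared reads between genes, and 31.3% are not whole. The deposited FPKM values are scaled by the authors for transcript length and depth, and served for levels between genes.

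Groups came from the sample labels, and each library is a separate mouse. Counts were rounded and tested in edgeR 4.0.16 (R 4.3.3; TMM scaling, filterByExpr at its minimum count of 10, a robust fit by quasi-likelihood, group as the only term, Benjamini-Hochberg adjustment over all genes tested). For single genes, mean log2(CPM + 0.5) was compared by an exact two-sided permutation test, and pair ratios were tested the same way after adding 0.5 to each count. At 18745379 to 19324461 counts per library, the spread between mice exceeds counting error for all but genes of few counts. The script was tested on simulated data. Alternatives were other scalings and filters, DESeq2 1.42.0, limma-voom and limma 3.58.1 on log2(FPKM + 0.1) and log2(FPKM + 1), the replicate number as a block, summed paralogs and leaving out each mouse. Leaving out Exercise 3 and Exercise 5 together was chosen after seeing the data. The other genes named are the 5 with the smallest p on each of 4 lists, plus Orm3 and genes said to be named after their values were seen, and the genes counted or summed for lists.

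Sequences came from RefSeq tables of GRCm38.p6, and transcripts and coding bases from GENCODE on GRCm38. The 10 genes and all lists were chosen with earlier results of these data known. Permutation tests and figures were made in Python 3.11.15 (pandas 2.3.3, scipy 1.17.1).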

Additional observations from a re-analysis of the deposited data

Results flagged for a closer look

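Among the 20 sets of 6 values that the 10 genes gave in the groups, 1 held a mouse far from the others: Sedentary 5 had 73.1 CPM of Apcs, and the next highest sedentary mouse had 58.7 CPM. The gap was 0.707 of the whole range of the group. Chance gives such a gap in about 1 of 20 sets, and its source was not tested. The same mouse was the lowest of its group for Saa1, Saa2, Saa3 and Orm2. Without it the log2 fold change of Apcs was 0.15, and the gene again did not pass the test.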

How the results depend on the processing

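The number of acute phase genes that changed, 4 higher and 0 lower, was the same under all 12 alternatives and with each of the 12 mice left out. Over the alternatives the log2 fold change ran from 0.48 to 0.60 for Hp, from 0.41 to 0.51 for Crp, from 0.61 to 0.73 for Saa4 and from 1.28 to 1.72 for Lcn2. With the replicate block, 4956 genes changed (2490 higher and 2466 lower) and the same number of acute phase genes, and it gave 1.65 for Lcn2 and 0.60 for Hp. Mice of the same replicate number share only a number: the correlation of their deviations was -0.11 to 0.17, over 0.1 in 2 of 6 pairs, and 2 of 6 mice correlated best with their own number.

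Scaling by library size alone moved the median of all genes to -0.098 and limma on FPKM moved it to -0.093 (pseudocount 0.1) and -0.066 (pseudocount 1). Of the genes called, the share that was higher went from 49.8% to 32.1%, 31.4% and 31.6%, and limma on FPKM called 1702 and 1714 genes higher, against 2603. In the same 3 settings, the log2 fold change was -0.050, -0.053 and -0.053 for Orm1 and -0.025, -0.028 and -0.027 for Apcs, which had been above 0. Saa3, at 0.00, fell on either side of 0: it was -0.098 by library size alone, -0.023 with upper quartile factors, -0.0014 with no filter, and -0.011 and -0.012 with limma on FPKM at the 2 pseudocounts. With Exercise 3 and Exercise 5 left out together, Saa1 was -0.12 and Apcs -0.027. None of these values passed the test, and no direction is given for these 4 genes.

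With 1 mouse left out at a time, Saa3 ran from -0.14 to 0.091, the difference in the Saa1 to Saa2 ratio from 0.33 to 0.48 (8 of 12 fits not past the threshold) and the difference in the Saa1 to Saa4 ratio from -0.70 to -0.35 (past the threshold without Sedentary 5 only). DESeq2 and limma-voom made the same 4 calls. Depth limits Saa3, Saa2 and Lcn2 most, with as few as 53.0, 102 and 105 counts in a library.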

Other observations

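The log2 ratio of FPKM to count was nearly constant over the 12 libraries for 9 of the 10 genes, with a range of at most 0.0253. For Saa3 it ranged over 0.346 and was 0.0855 higher on average in exercised mice. The cause was not tested.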
